A study of Chlorocebus sabaeus with 18 samples.

Results

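The exon features described here are 89 exon regions and exon-exon junctions whose signal, set against the signal of their own gene, was lower after TRA2A knockdown in cells with and without a CGG repeat construct. They were taken from 483868 features on 18 human Clariom D arrays, 318024 exon regions and 165844 junctions. The measure is the exon minus gene value, the log2 value of the feature minus the gene-level log2 value on the same array. A feature belonged to the set if its mean over all arrays was above 7.46 on the log2 scale, if its host gene changed by less than 0.3 in both knockdown comparisons, and if its exon minus gene value was lower by at least 0.75 in both, as means of 3 arrays. In all, 241992 features passed the condition on level and 107397 met both conditions on level and host gene. The features were thus selected on their falls in siTRA minus CTL and in CGG_siTRA minus CGG, so these falls are given as a description and were not tested.

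Total RNA came from COS-7, a fibroblast-like kidney line of the African green monkey, in 6 groups of 3 arrays. The siTRA cells had a TRA2A knockdown, the GFP_TRA cells overexpressed TRA2A, and the CTL cells were controls for which no transfection is given. The CGG_siTRA, CGG_TRA and CGG cells all carried a transfected FMR1 leader with 60 CGG repeats, with TRA2A knockdown, with TRA2A overexpression and with no TRA2A treatment. No group with a control siRNA, with GFP alone or with the construct lacking the repeat was analysed here, so knockdown and siRNA handling cannot be told apart. Of the control samples, the second and the third carry other numbers than COS-7 in their condition field, COS-6 and COS-5, although the cell line field says COS-7 for all. GFP appears in the names of the GFP_TRA samples but not in those of the CGG_TRA samples. Arrays CGG 1 and siTRA 3 were rehybridised. Nothing states that the samples of a group are separate cultures, so p-values measure the spread between these arrays, which may be technical.

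TRA2A is an RNA-binding protein of the Tra2 family, relatives of the SR proteins, with an RNA recognition motif between domains rich in arginine and serine. Tra2 proteins bind purine-rich motifs in exons and are known mainly as activators of exon inclusion, with TRA2B as the close paralog. Expanded CGG repeats in the FMR1 leader are linked to the neurodegenerative disorder FXTAS, and the study concerns the recruitment of TRA2A by that RNA. An exon region on this array type is a stretch of exon that is included or skipped as a unit. A junction probe set spans the join of a pair of exons and so reports one particular splice.

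The knockdown moved TRA2A as labelled. Its gene-level log2 value was 11.40, 12.04 and 11.20 in siTRA cells, against 14.65, 14.68 and 14.54 in CTL cells. In the repeat background it was 11.63, 11.96 and 11.88 in CGG_siTRA cells, against 14.49, 14.51 and 14.71 in CGG cells. The groups did not overlap in either background, and the log2 changes were -3.08 ± 0.19 and -2.75 ± 0.19 (SE, n = 3 each, limma across all genes, adjusted p = 2.42e-08 and 5.2e-07). In GFP_TRA cells TRA2A stood at 18.70, 18.39 and 18.50, and in CGG_TRA cells at 17.16, 17.11 and 17.22. TRA2B had group means between 16.43 and 16.79 and was not called in any comparison. Of 24 measured genes for SR and Tra2 proteins and their kinases, TRA2A alone was called in each of the knockdown comparisons, where 0.42% and 0.124% of all genes were called lower. Of the marker genes, VIM (15.86), TUBA1B (19.85), KRT8 (13.99) and EPCAM (12.46) were high, PAX8, a kidney transcription factor, was at 10.32 and PAX2 at 3.60. CDH1, the epithelial cadherin, was at 7.25, below KRT8 and EPCAM. Markers of leukocytes, endothelium, neurons and red cells lay between 3.25 and 6.99. On the leading principal component of the gene-level values the CTL arrays stood apart, at 79.5, 63.6 and 30.7, with the other arrays between -36.2 and 10.7. Every change against CTL therefore rests on arrays that differ from all others, and the part of this in the falls was not tested.

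The falling features did not outnumber the rising ones. By the same rule with the sign turned, 114 features were higher in both backgrounds. Falls outnumbered rises in 2 of the alternatives run, at a limit of 0.5 (521 and 501) and without CTL 2 (105 and 94), and the rising count was 182 without CTL 1 and 222 without CGG 2, beside 112 and 129 falling. The 89 falling features were 0.0829% of those that met the conditions, and the rising ones 0.106%. Taken alone, siTRA minus CTL held 4304 falls and 2605 rises of at least 0.75, and CGG_siTRA minus CGG held 1125 falls and 1868 rises. The pair of comparisons shares no array. The 89 common falls were 2.07% of the falls in siTRA cells, while 1.05% of all features that met the conditions fell in CGG_siTRA minus CGG. They were 7.91% of the falls in CGG_siTRA cells, while 4.01% of all such features fell in siTRA minus CTL. A larger number moved in opposite directions: 472 features were lower in siTRA cells and higher in CGG_siTRA cells, and 139 the other way round. That makes 611 features of opposite direction beside 203 of the same direction.

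**Figure D1:**
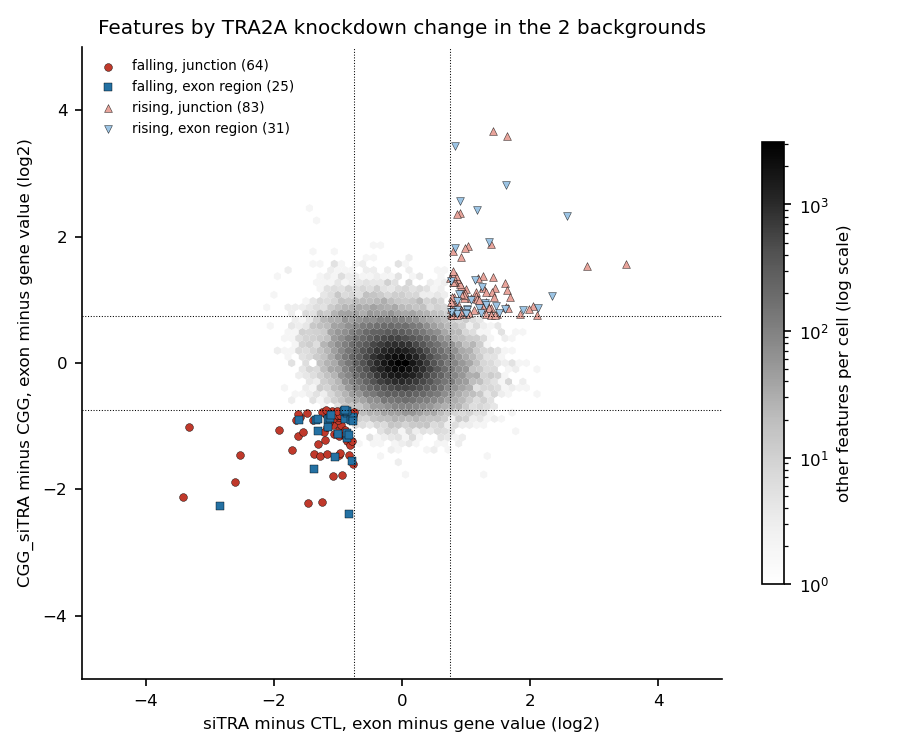
Change of the exon minus gene value with TRA2A knockdown, siTRA minus CTL (horizontal, log2) and CGG_siTRA minus CGG (vertical, log2), for the features that met the conditions on level and host gene; 1 feature lies beyond the axes. Coloured points are the 89 falling and 114 rising features, grey cells count the others on a log scale, dotted lines mark a change of 0.75, and the corners with opposite signs hold 611 features.

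Junctions made up most of the set. Of the 89 falling features 64 were junctions and 25 exon regions, a junction share of 71.9% (exact 95% binomial interval 61.4 to 80.9, counting error only). The rising set had 83 junctions and 31 exon regions, a share of 72.8%. Among all features that met the conditions, junctions were 41.1%. By type, 0.145% of junctions and 0.0395% of exon regions fell by the rule, against 0.188% and 0.0490% that rose. Junction probe sets therefore entered both lists more often than exon regions did.

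The features came from 79 transcript clusters, the array's unit for a gene. Of these features 74 carried 1 gene symbol, from 64 genes, 5 carried several symbols and 10 none. Of the 64 genes, 60 matched a protein-coding gene of the green monkey annotation by symbol. The other 4, CD1E, NF1P2, PAX8-AS1 and STX16-NPEPL1, found no match. By the rule, a feature had to be lower in its own log2 value, since its gene could change only a little. Of the 89 features, 65 were lower by at least 0.75 in their own value in both comparisons. As a description of the selected values, the median change of the feature value was -1.03 in siTRA cells and -1.07 in CGG_siTRA cells, beside a median change of the host gene value of 0.02 and 0.01. Of the named genes, 2 had features in both the falling and the rising list, EPC1, of a histone acetyltransferase complex, and PBRM1, of the PBAF chromatin remodeller.

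The genes with 3 or more falling features were ZNF532 with 4, FOXRED1 with 3 and PIMREG with 3. Set against the median of the features of the gene in place of the gene value, 0 of these 10 kept a fall of 0.75 in both comparisons. That median includes the members, so it moves with a fall that they share, and the count of 0 is partly fixed by this. In PIMREG the members were 3 of the 5 measured features. ZNF532 encodes a zinc finger protein, FOXRED1 an assembly factor of mitochondrial complex I, and PIMREG a protein of mitosis that binds the clathrin assembly protein PICALM. UPF2, UBAP2L and TBC1D5 had 2 each, and the other 58 genes 1. The measured features of a gene are those past the limit on level.

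The PIMREG junction JUC1700048024 had exon minus gene values of 4.67, 3.78 and 3.88 in siTRA cells, against 5.62, 5.75 and 5.59 in CTL cells. In the repeat background it had 3.89, 4.33 and 4.08 in CGG_siTRA cells, against 5.54, 5.19 and 4.84 in CGG cells. All 6 knockdown arrays lay below all 6 arrays of the untreated cells, and the means differed by -1.54 and -1.09. The GFP_TRA arrays, at 5.21, 5.24 and 5.55, and the CGG_TRA arrays, at 5.25, 4.90 and 4.68, stood above every knockdown array, with CGG_TRA 3 at 4.68 next to siTRA 1 at 4.67. The other PIMREG junctions were JUC1700048020 (changes of -1.17 and -1.02) and JUC1700048022 (-1.16 and -0.79). All 5 measured features of the gene were lower in both comparisons, so that the members were part of a shift of every measured feature against the gene value. Set against the median of its gene's features, JUC1700048024 changed by -0.34 and -0.30 in place of -1.54 and -1.09. By the same measure JUC1700048020 changed by 0.03 and -0.23 and JUC1700048022 by 0.04 and 0.00. The median was taken over 5 features, 3 of them members, so these small changes were largely set by the measure. Nothing is read from them.

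The FOXRED1 exon region PSR1100171025 had values of 3.96, 3.92 and 3.82 in siTRA cells, against 4.98, 5.38 and 5.37 in CTL cells. It had 4.40, 3.84 and 5.12 in CGG_siTRA cells, against 5.16, 5.50 and 5.42 in CGG cells. The siTRA arrays were tightly grouped, while CGG_siTRA 3, at 5.12, lay next to CGG 1, at 5.16. The overexpression arrays were higher than the untreated means, at 5.58, 5.96 and 5.62 in GFP_TRA cells and 5.57, 5.74 and 5.67 in CGG_TRA cells. The FOXRED1 junction JUC1100059376 had 3.46, 3.10 and 2.94 in siTRA cells, against 4.35, 4.0 and 4.82 in CTL cells, and the groups did not overlap. In the repeat background the same junction had 3.92, 3.16 and 4.25 in CGG_siTRA cells, against 4.42, 4.80 and 5.38 in CGG cells, again without overlap. For the junction JUC1100059377 the changes were -1.65 and -0.91. Of the 8 measured features of FOXRED1, 5 were lower in both comparisons and 1 higher in both.

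The ZNF532 junction JUC1800050647 had 5.29, 6.17 and 5.76 in siTRA cells, against 8.09, 7.81 and 7.06 in CTL cells. It had 6.27, 5.0 and 5.92 in CGG_siTRA cells, against 7.36, 6.42 and 6.61 in CGG cells. The groups did not overlap in either background, and the gap in the repeat background was narrow, with CGG_siTRA 1 next to CGG 2. The exon region PSR1800151028 had 4.67, 4.91 and 5.27 in siTRA cells, against 6.13, 6.23 and 5.97 in CTL cells, and 5.35, 4.67 and 4.90 in CGG_siTRA cells, against 5.87, 5.80 and 5.89 in CGG cells. The other members were the region PSR1800151043 (-1.16 and -1.01) and the junction JUC1800050646 (-0.89 and -1.06). Of the 23 measured features of ZNF532, 18 were lower in both comparisons, and the 19 that were not members had a median of -0.90 in siTRA minus CTL and -0.41 in CGG_siTRA minus CGG. The gene-level log2 value of ZNF532 was 4.79 in siTRA and 4.89 in CTL cells while the members averaged 9.68 to 11.60 over all arrays. FOXRED1 (gene means of 3.64 and 3.61) and PIMREG (5.11 and 4.97) had the same wide gap between gene and feature values. How far the low gene value follows the features of such a gene was not tested.

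Among the genes with a pair of members, UPF2, a core factor of nonsense-mediated mRNA decay, had the junction JUC1000058783 at 2.22, 2.13 and 2.65 in siTRA cells, against 3.57, 3.24 and 3.38 in CTL cells. The same junction had 2.76, 2.38 and 1.97 in CGG_siTRA cells, against 3.30, 3.36 and 3.04 in CGG cells, with no overlap in either background. Of 45 UPF2 features, 38 were lower in both comparisons. Set against the median of the features of the gene, JUC1000058783 changed by -0.77 and -0.46. UBAP2L, a protein needed for stress granules, had the exon region PSR0100173151 at -0.55, -0.48 and -0.79 in siTRA cells, against 0.24, 0.49 and -0.17 in CTL cells. With the repeat it had -0.55, -0.82 and -0.69 in CGG_siTRA cells, against 0.26, 0.19 and 0.19 in CGG cells. Here the gene value and the feature value lay close together, at a gene-level mean of 14.15 in siTRA and 14.18 in CTL cells, and the region was lower by 0.51 and 0.87 against the median of its gene's features. Of 78 UBAP2L features, 40 were lower in both. TBC1D5, a GTPase-activating protein for Rab7, had the junction JUC0300077697 lower by 0.88 and 0.86 and 36 of 52 features lower in both. Set against the median of the features of the gene, this junction changed by -0.42 and -0.52. It averaged 12.60 over all arrays, beside a gene-level mean of 6.14 in siTRA and 6.26 in CTL cells.

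**Figure D2:**
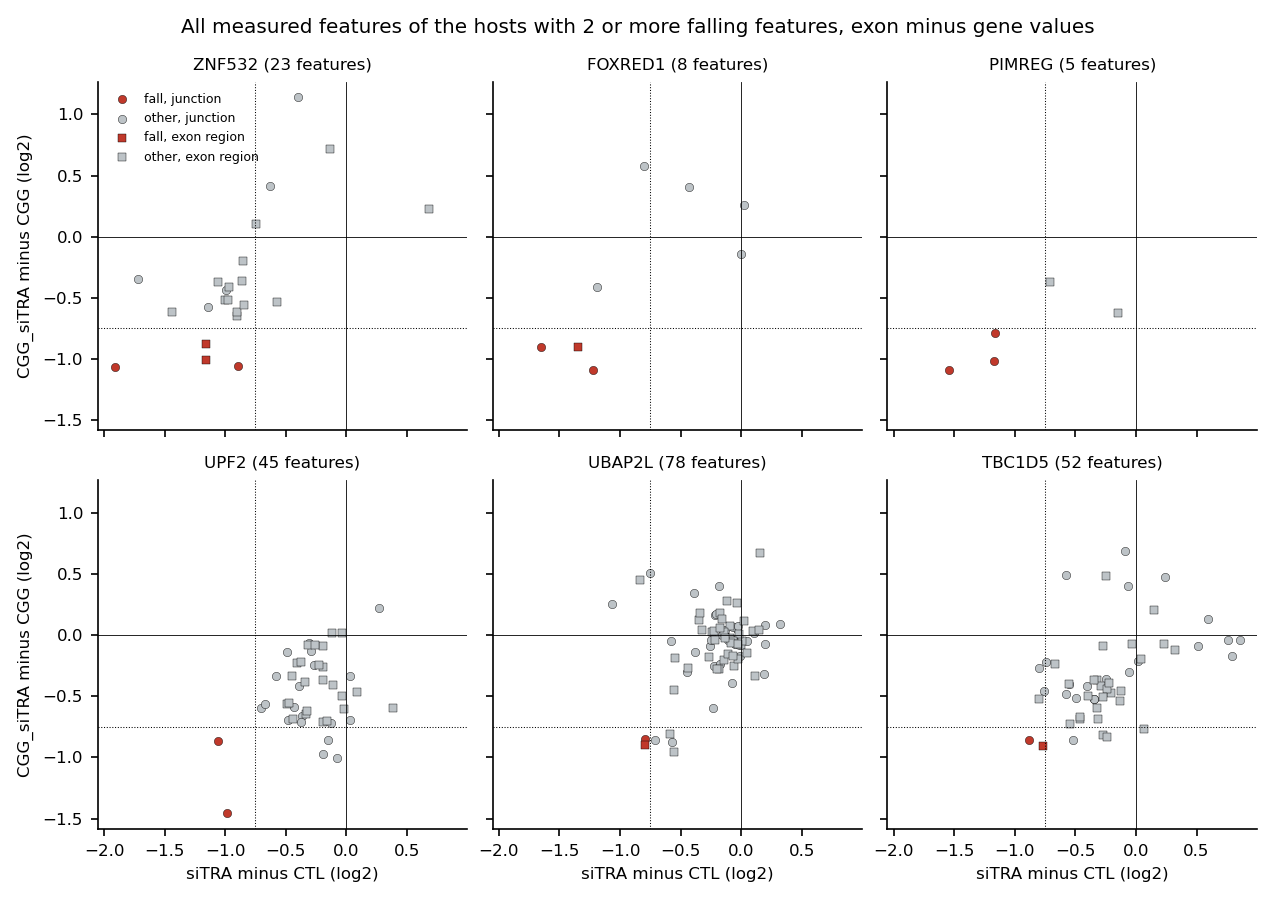
Every measured feature of the 6 genes with 2 or more falling features, by the change of its exon minus gene value in siTRA minus CTL (horizontal, log2) and CGG_siTRA minus CGG (vertical, log2). Red points are the falling features, grey points the others, circles junctions and squares exon regions, and the dotted lines mark -0.75; 18 of the 23 ZNF532 features and all 5 of PIMREG lie below 0 on both axes.

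Of the 89 features, 22 had no overlap between knockdown and untreated arrays in either background, 14 junctions and 8 exon regions from 19 transcript clusters. By the same measure 25 of the 114 rising features were free of overlap, from 14 transcript clusters. Over all features that met the conditions, 0.241% were lower without overlap in both and 0.155% higher. The list is named here after its values were seen. Besides the 3 ZNF532, 2 FOXRED1, and 1 each of the PIMREG, UPF2, UBAP2L and TBC1D5 features, it held junctions of SHROOM2, an actin-binding protein, SPNS2, the sphingosine-1-phosphate exporter, CD1E, of lipid antigen presentation, PPFIA2, a liprin of the synapse, RYR1, the calcium release channel, and MGAT5B, a glycosyltransferase. Exon regions of PLPP5, a lipid phosphatase, TMEM214, a protein of the endoplasmic reticulum, CAB39L, a scaffold of the LKB1 kinase, and ABCB1, the multidrug exporter P-glycoprotein, completed the named ones, with a junction of the STX16-NPEPL1 readthrough transcript, whose exons may be shared with both parent genes. A further 2 junctions carried several symbols or none. CD1E and STX16-NPEPL1 found no match by symbol in the green monkey annotation, so what their probes read in these cells was not tested.

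The SHROOM2 junction JUC0X00047576 had 2.73, 2.18 and 3.00 in siTRA cells, against 4.14, 4.79 and 3.84 in CTL cells, and 2.41, 2.60 and 2.65 in CGG_siTRA cells, against 2.80, 4.02 and 3.27 in CGG cells. The PLPP5 region PSR0800169060 had 3.03, 3.06 and 2.87 in siTRA cells, against 3.41, 4.21 and 3.89 in CTL cells, and 2.38, 3.14 and 3.16 in CGG_siTRA cells, against 4.24, 4.01 and 3.74 in CGG cells. Both overexpression groups of this PLPP5 region, at 4.0, 3.72 and 3.98 and at 4.03, 3.79 and 4.16, lay among the untreated arrays. The SPNS2 junction JUC1700047621 was lower by 1.08 in siTRA cells and by 0.98 in CGG_siTRA cells. The TMEM214 region PSR0200148094 was lower by 0.90 and 0.88. With the median of the gene's features in place of the gene value, all of these falls were smaller. The SHROOM2 junction then changed by -0.66 and -0.46 and the PLPP5 region by -0.60 and -0.985. For SPNS2 the changes were -0.59 and -0.65, and for TMEM214 -0.42 and -0.31. Elsewhere in the list without overlap, the ABCB1 region changed by 0.05 and -0.48 and the PPFIA2 junction by -0.935 and -0.908.

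Several of the largest falls came with arrays far apart within a group. The TLR3 exon region PSR0400165353, in the gene for a sensor of double-stranded RNA, had -5.35, -2.13 and 0.50 in siTRA cells, against 2.28, -2.91 and 2.18 in CTL cells. It had 0.86, -5.29 and 1.11 in CGG_siTRA cells, against 1.30, 0.75 and 1.42 in CGG cells. Its changes were -2.84 and -2.26. The arrays fell into low ones, siTRA 1, siTRA 2, CTL 2 and CGG_siTRA 2, at -2.13 or lower, and the rest of these groups between 0.50 and 2.28, with all overexpression arrays between 0.97 and 1.79. Leaving out a single array reduced the smaller of its falls to 0.17.

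Junctions with large falls also had scattered arrays. The DCAF10 junction JUC0900049533, in a substrate receptor of a ubiquitin ligase, had -4.12, -2.52 and -4.82 in siTRA cells, against -1.69, 0.19 and 0.31 in CTL cells. In the repeat background it had -3.15, -4.94 and -1.76 in CGG_siTRA cells, against 0.35, -2.16 and -1.70 in CGG cells, where the groups overlapped. The ARHGAP17 junction JUC1600061201 was lower by 2.60 and 1.88, with siTRA arrays at -0.41, -3.34 and 0.47, against CTL arrays at 1.68, 3.14 and -0.30. The CENPK junction JUC0500062701, in a kinetochore protein, was lower by 2.52 and 1.45, and its CGG arrays alone ran between 0.40 and 6.71.

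The XPO4 junction JUC1300053148, in a nuclear transport receptor, had -7.94, -5.98 and -8.99 in siTRA cells, against -5.45, -6.67 and -6.40 in CTL cells. In the repeat background it had -8.14, -7.27 and -8.39 in CGG_siTRA cells, against -5.93, -5.10 and -6.15 in CGG cells, without overlap. The FKBP8 junction JUC1900063841, in a mitochondrial anti-apoptotic protein, had 3.82, 3.90 and 3.95 in CGG_siTRA cells, against 4.76, 5.71 and 5.51 in CGG cells. Its siTRA arrays, at 3.83, 4.42 and 3.03, overlapped with CTL 2 among the CTL arrays at 5.17, 4.20 and 6.01. Of the 12 junctions with the largest falls, the others lay in LDB3, a protein of the muscle Z-disc (-1.71 and -1.38), IFT81, of intraflagellar transport (-1.27 and -1.47), FASTKD1, a mitochondrial RNA regulator (-1.31 and -1.27), TICRR, of replication initiation (-1.24 and -2.20), VPS13A, a lipid transfer protein (-1.17 and -1.45), RPF2, of ribosome assembly (-1.63 and -1.15), and FOXRED1, given above. The LDB3 junction averaged 11.51 over all arrays, beside a gene-level mean of 4.19 in siTRA and 3.98 in CTL cells.

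Among the exon regions, those with the largest falls after TLR3 included the ATF2 region PSR0200209563, in a stress-responsive transcription factor, lower by 1.38 and 1.68. Its siTRA arrays were at -3.98, -1.50 and -0.78, against CTL arrays at 2.01, -4.21 and 0.08, so that the lowest array was a control. The PAX8-AS1 region PSR0200162609, in an antisense RNA of PAX8, had 2.02, 1.58 and 2.03 in CGG_siTRA cells, against 3.15, 3.32 and 2.40 in CGG cells, and its changes were -1.31 and -1.08. PAX8 itself changed at the gene level by -1.09 in siTRA cells (limma, adjusted p = 0.0153), and whether the probes separate the strands was not tested. The TTR region PSR1800148072, in the thyroid hormone carrier transthyretin, was lower by 0.99 and 1.13, and the DIRAS1 region PSR1900203558, in a Ras-like GTPase, by 1.61 and 0.91. The BAG1 region PSR0900167427, in a co-chaperone of HSP70, was lower by 0.83 and 2.39, with CGG_siTRA arrays at -4.58, -2.86 and -4.82, against CGG arrays at -1.06, -1.56 and -2.48. The PBRM1 region PSR0300183468 changed by -0.82 and -1.14, with CGG_siTRA arrays at -1.13, -1.22 and -3.60, against CGG arrays at -0.83, -0.89 and -0.82.

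**Figure D3:**
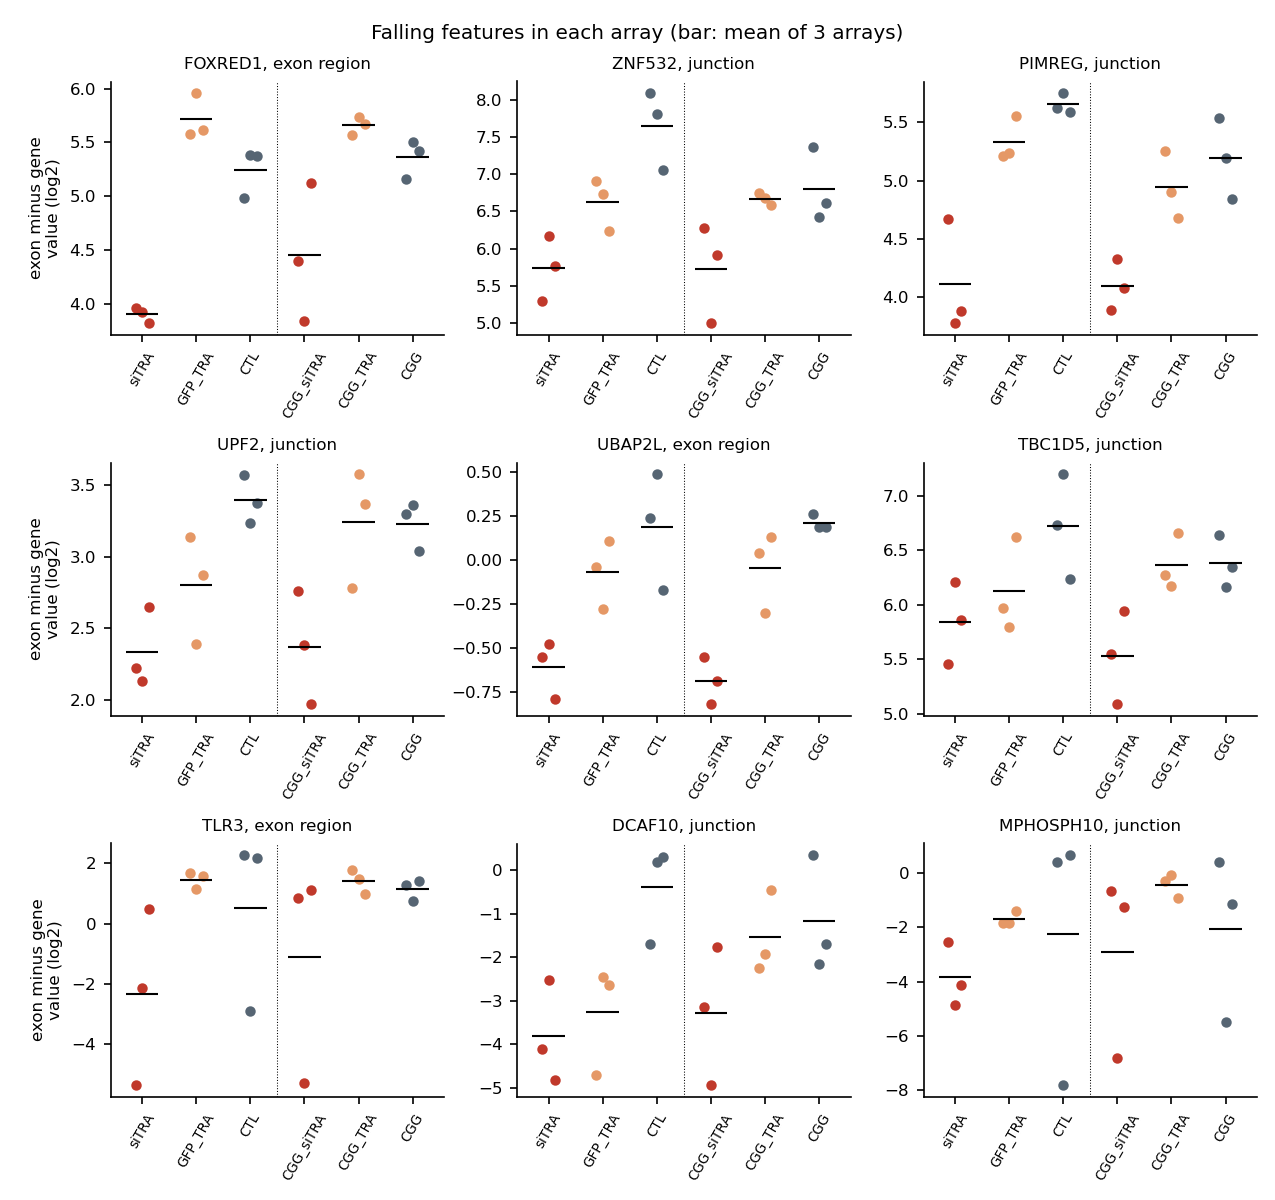
Exon minus gene value (log2) in each of the 18 arrays for 9 falling features, with groups in the order siTRA, GFP_TRA, CTL, then CGG_siTRA, CGG_TRA, CGG; points are arrays and bars the mean of 3. The features of the upper 6 panels have no overlap between knockdown and untreated arrays, with narrow gaps in the repeat background for FOXRED1 and ZNF532. Those of the bottom row (TLR3, DCAF10, MPHOSPH10) have arrays that differ by several log2 units within a group.

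Near the limit, the features just inside were in STX16-NPEPL1 (-1.01 and -0.75), RACGAP1, of cytokinesis (-1.18 and -0.75), and ABCB1 (-0.88 and -0.75). Those just outside were in RIC8B (-0.75 after rounding and -0.93), a chaperone of G proteins, EIF3E (-0.74 and -1.07), a translation initiation factor, and LAMA4 (-0.74 and -1.01), a laminin. Few falls were independent of any single array. Of the 89 features, 10 kept a fall of 0.75 in both comparisons whichever of the 12 arrays was left out, 46 kept a fall of 0.5, and 7 changed sign in a comparison without some array.

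In a limma model of all 241992 features, 5 of the 89 features were called lower in siTRA minus CTL at an adjusted p under 0.05, where 0.186% of all features were. They were JUC1700048024 of PIMREG (adjusted p = 0.0153), JUC1800050647 (0.0379) and PSR1800151028 (0.0328) of ZNF532, PSR1100171025 of FOXRED1 (0.0349) and JUC0X00047576 of SHROOM2 (0.0391). In CGG_siTRA minus CGG limma called 0 of the 89 and 0% of all features lower. At an unadjusted p under 0.05 limma had 49 of the 89, and the share of all features at that limit was not counted. Of the 114 rising features 7 were called higher in siTRA minus CTL (0.0913% of all features) and 0 in CGG_siTRA minus CGG (0.00455%). The rule used these comparisons, so the counts describe the members and test nothing. Without overlap of arrays, 36 of the 89 were lower in siTRA minus CTL (8.64% of all features) and 48 in CGG_siTRA minus CGG (4.93%). Of the rising features 48 were higher without overlap in siTRA minus CTL (4.11%) and 47 in CGG_siTRA minus CGG (4.39%).

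The overexpression arrays entered the rule only through the mean over all arrays that sets the limit on level, but their comparisons with CTL and CGG share the untreated arrays with the knockdown comparisons. Their values are therefore set side by side, with no test of likeness. In GFP_TRA minus CTL the 89 features had a median of -0.48 (range -3.60 to 1.73), against -0.10 over all features, and 69 were lower and 20 higher. In CGG_TRA minus CGG the median was -0.28 (range -2.36 to 2.34), against -0.06 over all features, with 63 lower and 26 higher. Limma called 0 of the 89 in either, in either direction, where it called 0.123% of all features lower and 0.0492% higher in GFP_TRA minus CTL and 0.00289% lower and 0.00207% higher in CGG_TRA minus CGG. At an unadjusted p under 0.05 (limma), 16 of the 89 were lower and 1 higher in GFP_TRA minus CTL. In CGG_TRA minus CGG 10 were lower and 0 higher. The share of all features at that limit was not counted, so nothing is read from these counts. By the shares without overlap, given next, all features leaned lower as well. Without overlap of arrays 15 were lower in GFP_TRA minus CTL (11.5% of all features) and 15 in CGG_TRA minus CGG (9.65%), while 2 (4.87% of all features) and 3 (4.52%) were higher.

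By group means, the GFP_TRA value lay between the siTRA and the CTL value for 57 of the 89 features, above CTL for 20 and below siTRA for 12. The CGG_TRA value lay between CGG_siTRA and CGG for 52, above CGG for 26 and below CGG_siTRA for 11. Among features with 1 gene symbol, those highest with overexpression, by the mean of both comparisons, were junctions of MPHOSPH10, of the U3 ribonucleoprotein (0.56 in GFP_TRA and 1.62 in CGG_TRA cells), ORC5, of the origin recognition complex (-0.26 and 2.32), and UBP1, a transcription factor (0.73 and 0.56). The MPHOSPH10 junction JUC0200052691 had a low array in each untreated group, with CTL arrays at 0.42, -7.81 and 0.67 and CGG arrays at 0.43, -5.47 and -1.12. The UBP1 junction JUC0300063269 had -1.73, -1.75 and -1.98 in CGG_TRA and -3.26, -3.38 and -3.99 in CGG_siTRA cells, against -2.44, -2.31 and -2.40 in CGG cells. These groups were thus fully ordered, overexpression above untreated above knockdown. The junction was chosen for its fall and named for its high overexpression values, so the order is a description only. Its change in CGG_TRA minus CGG was 0.56 ± 0.35 (SE, n = 3 each, limma, adjusted p = 0.666). Without the repeat the junction had -1.70, -1.51 and -1.35 in GFP_TRA and -3.24, -2.84 and -3.64 in siTRA cells. The CTL arrays, at -3.23, -1.32 and -2.21, overlapped with both.

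Among features with 1 gene symbol, the lowest were junctions of CENPK (-2.88 in GFP_TRA and -0.81 in CGG_TRA cells), DCAF10 (-2.87 and -0.37) and NF1P2 (-1.06 and -2.29). Of the features without a symbol, JUC1500066128 (mean of both comparisons 1.49) and JUC0300062024 (1.19) lay higher than MPHOSPH10 (1.09), and JUC1100056674 (-2.04) lower than CENPK (-1.85). NF1P2 is a pseudogene of NF1 whose probes may also read the parent gene. In FOXRED1, 2 of the 3 members were higher than untreated with overexpression in both backgrounds, PSR1100171025 by 0.48 and 0.30 and JUC1100059377 by 0.54 and 0.21. In ZNF532 all 4 members were lower than untreated with overexpression, by 0.11 to 1.03 in GFP_TRA and by 0.13 to 0.32 in CGG_TRA cells.

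**Figure D4:**
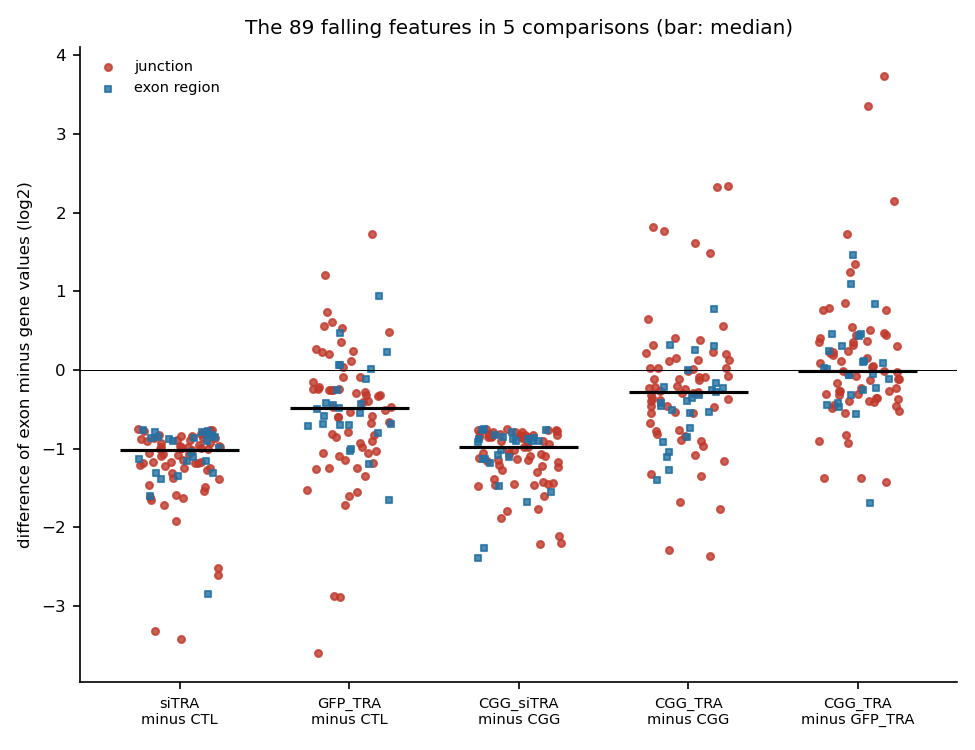
Difference of the exon minus gene value (log2, vertical) of the 89 falling features in 5 comparisons, with the median as a bar, junctions as circles and exon regions as squares. The medians are -1.01 and -0.98 in the knockdown comparisons, which chose the features, -0.48 and -0.28 with overexpression, which share the untreated arrays with them, and -0.01 in CGG_TRA minus GFP_TRA.

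The comparison of CGG_TRA with GFP_TRA cells used none of the arrays of the knockdown comparisons, though its arrays were part of the mean for the limit on level. TRA2A itself changed by -1.37 ± 0.19 between these groups (SE, n = 3 each, limma, adjusted p = 0.0161). The repeat and the lower TRA2A level thus cannot be told apart in this comparison. The median of CGG_TRA minus GFP_TRA over the 89 features was -0.01 (range -1.70 to 3.74), against -0.02 over all features, with 46 lower and 43 higher. Limma called 0 of the 89, where it called 0.000826% of all features lower and 0.0479% higher. At an unadjusted p under 0.05 (limma), 1 of the 89 was lower and 3 higher, with no share of all features counted at that limit. Without overlap of arrays 6 were lower (7.17% of all features) and 5 higher (5.57%), shares of the 89 close to those of all features. The rising features had a median of 0.22, and 1 of them was called, a region of RPL37A, a ribosomal protein, at 3.09 ± 0.25 (SE, n = 3 each, limma, adjusted p = 0.000118). The largest difference among the 89 was in a junction of TLK2, a kinase of chromatin assembly, named here for its value. It had 2.53, 4.13 and 5.24 in CGG_TRA cells, against 1.35, 3.05 and -3.72 in GFP_TRA cells, a difference of 3.74 with overlapping arrays.

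The overexpression arrays also give the spread of the features outside the 12 arrays of the knockdown comparisons. The SD within the GFP_TRA and CGG_TRA groups had a median of 0.418 over the falling features and 0.549 over the rising ones, against 0.274 over all features that met the conditions. It was above that last value in 67 of the 89 falling features (75.3%) and in 86.8% of the rising ones. The difference held within each type, at 0.507 for falling junctions, against 0.320 for all junctions, and 0.352 for falling exon regions, against 0.246 for all exon regions.

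**Figure D5:**
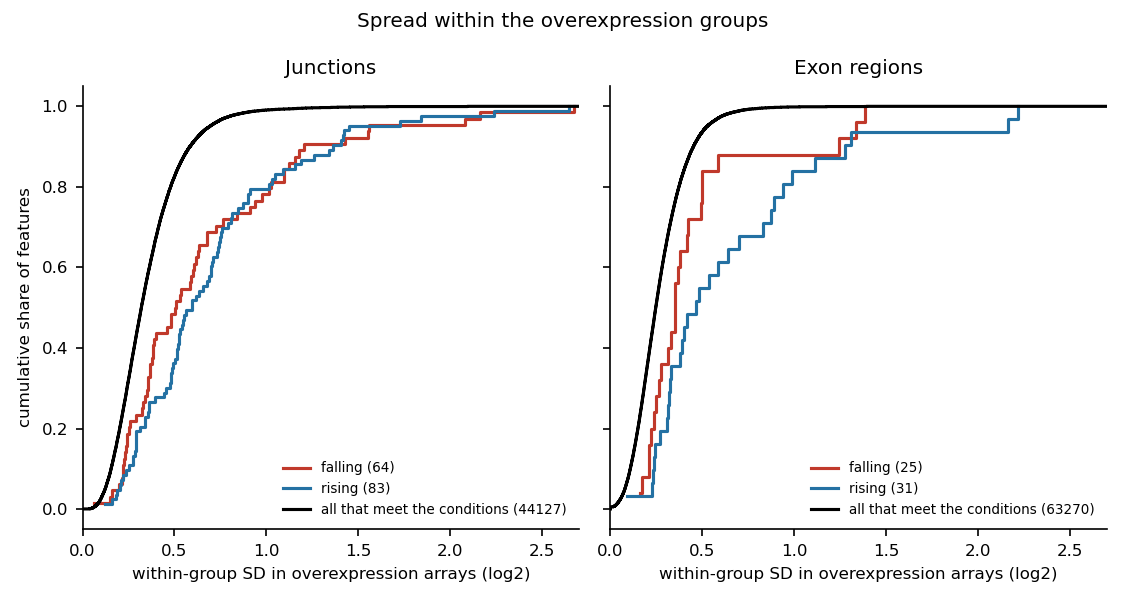
Cumulative share of features (vertical) by the SD of the exon minus gene value within the GFP_TRA and CGG_TRA groups (horizontal, log2), for junctions and for exon regions. The curves of the falling and rising features lie to the right of the curve of all features that met the conditions, with medians of 0.507 against 0.320 for falling junctions and 0.352 against 0.246 for falling exon regions.

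Host genes of the falling features had lower gene-level values than those of all features that met the conditions. In the overexpression arrays the median was 7.20 on the log2 scale for the falling features and 10.87 for the rising ones, against 9.73 for all that met the conditions. The falling features stood a median of 1.99 above their gene value and the rising ones at -0.97, against 1.23 over all. The features themselves were also low in level, with medians of 9.23 for the falling and 9.20 for the rising ones, against 10.60 over all that met the conditions. Of the 89 features, 45 (50.6%) lay in a gene whose own mean was at or below the limit of 7.46 that the features had to pass. Of all features that met the conditions, 29.9% did. The median of the gene-level means of all genes on the array was 4.14, and 5 of the 89 features had a host under it. Among the 84 features with 3 or more measured features in their gene, 80 were lower in both comparisons and 37 by at least 0.75 when set against the median of those features in place of the gene value.

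Genes with exons known to respond to Tra2 proteins had 75 features that met the conditions, and 0 of these fell and 0 rose by the rule. At the shares of 0.0829% and 0.106% over all features, a count of 0 among so few is at the background. CHEK1, the checkpoint kinase, had 33 features that met the conditions, with changes between -0.60 and 0.61 in siTRA minus CTL and between -0.62 and 1.57 in CGG_siTRA minus CGG. CLK1, a kinase of SR proteins, had 26, between -0.60 and 0.71 and between -0.38 and 0.58. MAPT, which encodes tau, had 16, between -0.69 and 0.76 and between -0.73 and 0.58. The host genes TRA2A, TRA2B, NASP, a histone chaperone, HIPK3, a kinase, and SMN1, the spinal muscular atrophy gene, changed by 0.3 or more in a knockdown comparison, so that their features could not enter. With no limit on the host gene, 1 of the 27 TRA2A features, JUC0700062014, fell against the gene value by the rule and 13 rose, and none of NASP, HIPK3, SMN1 or TRA2B did either.

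Ranked by the smaller of their 2 changes, the largest rises among exon regions with 1 gene symbol were in RASSF8 (2.58 and 2.33), SLC30A6, a zinc transporter (1.36 and 1.92), and AAK1, a kinase of clathrin-mediated endocytosis (1.25 and 1.21). Among junctions they were in FOCAD (1.65 and 3.59), DPP8, a dipeptidyl peptidase (3.51 and 1.57), and SPATA7 (2.90 and 1.54). CAMTA1, a calmodulin-binding transcription activator, held 10 rising features, more than any gene held falling ones. The overexpression medians of the rising features were 0.53 in GFP_TRA minus CTL and 0.79 in CGG_TRA minus CGG, of the sign opposite to those of the falling features. Both comparisons share the CTL and CGG arrays with the rule that chose the lists, so nothing is read from their signs. In CGG_TRA minus GFP_TRA, which used none of those arrays, the medians were 0.22 for the rising and -0.01 for the falling features.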

How the data were processed

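RNA from COS-7 cells was measured on Clariom D arrays for human transcripts, whose probes were designed on human sequence, so a monkey base difference can lower a probe's signal. The authors deposited log2 values of exon regions, junctions and genes, made by SST-RMA over all arrays per the file headers, with RMA and the Transcriptome Analysis Console in the submitters' processing notes. Depth does not apply to arrays, and 3 arrays a group limit the precision. The gene value was subtracted from each feature value of the same array. The level limit of 7.46 is the median of the feature means. Differences were fitted with limma 3.58.1 in R 4.3.3 on 6 group means over 18 arrays (lmFit, eBayes, Benjamini-Hochberg over all features past the limit, or over 67854 genes). The fit, tested on simulated data, and Python 3.11.15 made all values. Named features were those with the largest falls (12 of each type, by the smaller fall, in genes with 1 symbol), genes with 3 or more, the extremes with overexpression, and those nearest the limit. The members and lists were chosen with earlier results of these data known. Gene biotypes came from the RefSeq annotation of the green monkey by symbol. Alternatives were other level, fall and host limits, normalizations, centring, and leaving out arrays. No feature sequences or coordinates were used here.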

Additional observations from a re-analysis of the deposited data

How the results depend on the processing

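The counts of falling and rising features were 271 and 272 with no limit on level, 21 and 29 with the 75th percentile as the limit, 521 and 501 at a change of 0.5, 25 and 31 at a change of 1, 35 and 48 with a host gene limit of 0.15, and 394 and 450 with no host gene limit. With the median of the 3 arrays in place of the mean they were 158 and 203, of which 42 and 43 were shared with the lists above. Against the median of the features of the gene 55 fell, 37 of them among the 89. Both of the next alternatives were added after seeing the data: with no overlap of arrays in either background the counts were 22 and 25, and with only hosts whose gene-level mean passed the feature limit 44 features fell. Leaving out 1 array gave 94 to 132 falling and 94 to 222 rising features (182 without CTL 1 and 222 without CGG 2). The junction share of the falling features was 52.4% with the 75th percentile and 60.4% with no host gene limit, and ran from 65.5% to 76.6% when 1 array was left out. The junction share of the rising features was 61.3% at a change of 0.5, 60.7% with no host gene limit and 52.0% without overlap of arrays, and ran from 67.0% to 72.5% when 1 array was left out.

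The overexpression fits called 0 of the falling features under every alternative run, which tested all 89 except that 21 were tested with the 75th percentile and 84 with the median of the features of the gene. Over all features, the calls were 118 in CGG_TRA minus GFP_TRA, 416 in GFP_TRA minus CTL and 12 in CGG_TRA minus CGG. With the arrays of the compared groups alone they were 60, 11 and 2, with no filter 1066 in GFP_TRA minus CTL and 24 in CGG_TRA minus CGG, and with the 75th percentile 45 in CGG_TRA minus GFP_TRA and 5 in CGG_TRA minus CGG. Rehybridisation as a covariate gave 61 in CGG_TRA minus CGG, and the median of the features 25. Leaving out 1 array gave 57 to 92, 91 to 2626 (2626 without CTL 3) and 7 to 18. Replicate numbers did not pair the arrays, with correlations of same-numbered deviations of -0.20 to 0.18, and the replicate block gave 90, 267 and 8 calls. Over the 89 features, 7 changed sign in a comparison without some array, among them, outside the features named by rule, TLK2 (up to 0.145) and JUC1500066128 (up to 1.15). Of the 444 changes with 1 array left out of the 37 features named by rule, 4 changed sign: VPS13A in siTRA minus CTL (-2.76 to 0.015, positive without CTL 3), MPHOSPH10 in CGG_siTRA minus CGG (-2.56 without CGG 2 to 1.11 without CGG_siTRA 2, and 0.40 without CGG 1) and ORC5 in CGG_siTRA minus CGG (-1.75 to 0.49, positive without CGG 1). The causes were not tested.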
